A study of Drosophila melanogaster with 13 samples.

Results

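HERC2, Rip11 and Rab35 are 3 genes of the X chromosome of Drosophila melanogaster that carried strong MSL2 peaks in MLEWT-FLAG males and had no overlapping MSL2 peak in MLEΔCBD-FLAG males, while an MSL1 peak was listed at the same place in both lines. They were chosen by those values: the fold enrichment of MSL2 in the MLEWT-FLAG list, the absence of an MSL2 peak in the MLEΔCBD-FLAG list, and the presence of MSL1 there, so these values are given below as a description only. Every peak that overlapped 1 of the 3 gene bodies or lay within 20 kb of it was taken, which gave 37 of the 6400 peaks in the 6 deposited lists, 2426 of which lie on the X chromosome. Peaks of MSL1, MSL2 and MSL3, proteins of the male-specific lethal (MSL) complex, were called from chromatin immunoprecipitation of whole adult males aged 2 to 3 days, with 2 libraries for each protein and line (12 libraries). A preimmune library of the MLEWT-FLAG line made up the 13 samples and was not analysed here.

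MLEΔCBD-FLAG males (y1w1118; mle9/mle9; Ubi:mleΔCBD/Ubi:mleΔCBD) carried an MLE transgene without the region that binds CLAMP, in 2 copies. MLEWT-FLAG males (y1w1118; mle9/mle9; Ubi:mleWT/TM6) carried the full-length transgene in 1 copy over the TM6 balancer. Both lines were homozygous for the mle9 allele of the endogenous gene, and both transgenes were tagged with FLAG, driven by a ubiquitin promoter and inserted at the same site (strain label Dmel\M{3xP3-RFP.attP}ZH-86Fb). Copy number and balancer therefore cannot be told apart from the deletion. Whole males mix many tissues, so fewer cells with a bound site and less binding per cell cannot be told apart either. Each protein and line had 1 list of peaks, with no column labelled by replicate, so no test between the lines could be made. Each list did hold values from both peak sets of its reproducibility comparison (first set and second set below). These are the only measure of spread, which may be technical. The sets may be replicates or pseudoreplicates drawn from the same reads. In the second case their agreement would say nothing about variation between replicates. Read depth is not known, and it moves −log10 p and peak width. It can also move whether a peak is listed, how a long peak is split and how much length is covered. All of these are given side by side for the lines, and the part of depth in them was not tested.

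The MSL complex raises transcription of the single male X chromosome. MSL1 is its scaffold, MSL2 is the male-specific subunit that binds GA-rich DNA, and MSL3 carries the complex onto the bodies of active genes, where it reads methylated lysine on histone H3. MLE is an RNA helicase that remodels the roX RNAs of the complex, and CLAMP is a zinc finger protein that binds GA repeats on all chromosomes. HERC2 encodes a very large ubiquitin ligase, Rip11 an effector of the small GTPase Rab11 in vesicle traffic, and Rab35 a small GTPase of membrane traffic. CG6659 is a neighbour of Rip11 that kept its MSL2 peak, and it serves below as the nearest comparison.

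The DNA under the MSL2 summits is shown because MSL2 and CLAMP both bind GA-rich sequence and the sites differed in how much of it they hold. Each line gives 30 bases around the stretch of 21 bases within 100 bp of the MSL2 summit that best matched an alternation of G and A on either strand. Capitals mark the bases that match the alternation. HERC2 lies in the 3′ UTR, Rip11 and CG6659 in introns, Rab35 in the 5′ UTR, and roX1 is a known entry site of the complex, added as a reference.
HERC2, X, 20411853 to 20411882, plus strand: gaatGAGAGAGcGAGAGAGAGAGAGagacg
Rip11, X, 18636497 to 18636526, plus strand: gcagGcaAGcGAaAGgGAaAGAGAGgggcc
Rab35, X, 20159108 to 20159137, minus strand: agtgcGAaAGAGAGAGAGAGAGAGAGtaag
CG6659, X, 18654475 to 18654504, plus strand: ggatGccAatGAGAGcGgGAcAGAGcaggg
roX1, X, 3861318 to 3861347, plus strand: gcccGAtAGAGAGtGAtgGAGAGAGggagc

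HERC2 and Rab35 held a nearly unbroken GA repeat, with 20 of 21 bases matching, and Rip11 and CG6659 did not. The best match was 15 bases at Rip11, 14 at CG6659 and 17 at roX1. The stretch was centred 44 bp from the MSL2 summit at HERC2, 50 bp at Rab35, 1 bp at Rip11 and 15 bp at CG6659.

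An uninterrupted run of 4 GA units (GAGAGAGA on either strand, longer runs counted once per site) lay within 100 bp of the summit at HERC2 and Rab35, and at neither Rip11 nor CG6659. Among the 216 MSL2 peaks of the X chromosome in MLEWT-FLAG males, 30.1% had such a run. It was present at 46 of 161 peaks with no MSL2 peak in MLEΔCBD-FLAG males (28.6%) and at 19 of 55 peaks that kept one (34.5%). Lost and kept peaks therefore overlapped widely in this feature, and the 3 genes fell on both sides of it. Consecutive windows of the same length along the whole X chromosome held the run in 1.54% of cases. The median best match was 14 bases at lost peaks and 15 bases at kept peaks, against 11 bases over the windows of the X chromosome. Requiring only 3 GA units added Rip11 and roX1 but not CG6659, and raised the share to 43.5% of lost and 50.9% of kept peaks.

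**Figure D1:**
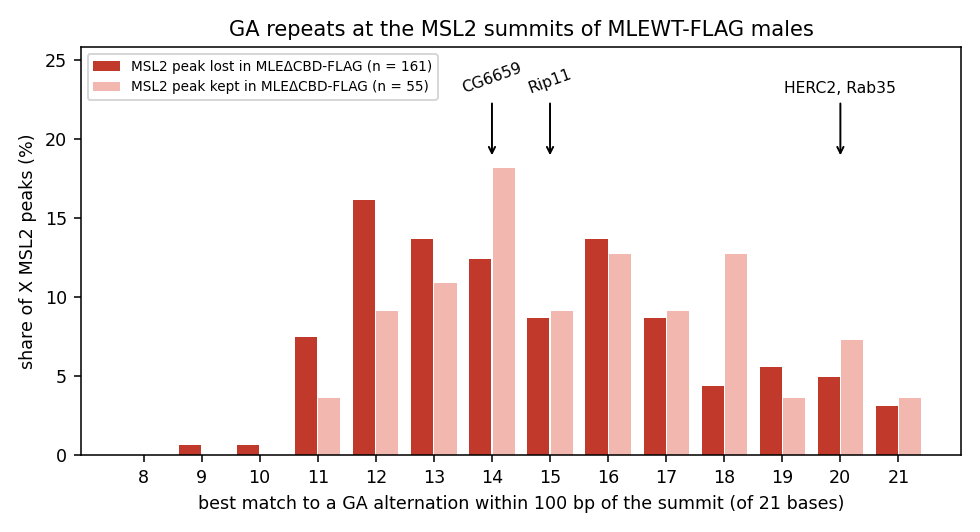
Share (%) of the MSL2 peaks of MLEWT-FLAG males on the X chromosome by the best match to an alternation of G and A within 100 bp of the summit, out of 21 bases. Dark bars are the 161 peaks lost in MLEΔCBD-FLAG males, light bars the 55 peaks kept, and arrows mark the sites described here: HERC2 and Rab35 at 20, Rip11 at 15 and CG6659 at 14.

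The positions of the MSL2 peaks in MLEWT-FLAG males were as follows. At HERC2 (FBgn0031107, X, 20394395 to 20412247, plus strand, 17853 bp, 1 transcript), the peak ran from 20409854 to 20412082, at the 3′ end of the gene. At Rip11 (FBgn0027335, X, 18635642 to 18647648, minus strand, 12007 bp, 5 transcripts), it ran from 18636188 to 18636788, again near the 3′ end. At Rab35 (FBgn0031090, X, 20155766 to 20159872, minus strand, 4107 bp, 4 transcripts), it ran from 20158956 to 20159752, near the start of the gene. Counted from the gene's start, the summits lay 97.6% along HERC2, 92.8% along Rip11 and 17% along Rab35. Of the 186 MSL2 summits of the X chromosome that fell in exactly 1 protein-coding gene, 23.7% lay in the last 10% of the gene, and the median position was 71.7% (quartiles 48 to 88.8). HERC2 and Rip11 thus lay beyond the upper quartile and Rab35 below the lower one. A 5′ UTR held 12 of the 216 summits (5.56%) and a 3′ UTR held 66 (30.6%).

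HERC2 was the strongest MSL2 peak of the X chromosome that had no counterpart in MLEΔCBD-FLAG males. Its fold enrichment, the height of the peak over the local background, was 10.7 in MLEWT-FLAG males, which is rank 21 of the 222 peaks in the list. Its −log10 p was 338 in the first peak set and 139.9 in the second. The peak was 2229 bp wide in the first set and 620 bp in the second, so its width depended on the set.

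Rip11 followed with a fold enrichment of 8.00 in MLEWT-FLAG males (rank 36). Its −log10 p was 210.2 in the first set and 43.4 in the second, where it ranked 85. Its width was similar in both sets, 601 bp in the first and 565 bp in the second.

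Rab35 had a fold enrichment of 7.06 in MLEWT-FLAG males (rank 46), with −log10 p of 169.5 and 56.0 and widths of 797 and 462 bp in the first and second set. A gap between sets ran through both MSL2 lists. Their median ratio of −log10 p between first and second set was 1.58 in MLEΔCBD-FLAG males and 1.99 in MLEWT-FLAG males. For MSL1 and MSL3 the ratio lay between 0.997 and 1.0. The MSL2 lists may hold another kind of set than the others, so these ratios do not compare how well the proteins replicated.

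The cut below Rab35 was a tie. The MSL2 peak in the 3′ UTR of crm (X, 2733650 to 2736394) had the same fold enrichment of 7.06 and the same rank 46 in MLEWT-FLAG males, was lost as well and also had an MSL1 peak in MLEΔCBD-FLAG males, so fold enrichment did not separate the 2. The next lost peak was nocte with 6.94 (rank 48). Of the 47 MSL2 peaks down to rank 46 in MLEWT-FLAG males, 4 were lost, namely HERC2, Rip11, Rab35 and crm, and 43 were kept. Kept peaks bracketed each member: Hmt4-20 (11.1, rank 20) and CG2278 (10.6, rank 22) stood on either side of HERC2, Pp2C1 (8.06, rank 35) and asRNA:CR44690 (7.83, rank 37) on either side of Rip11, and Remo (7.08, rank 45) and Raf (6.94, rank 48) on either side of Rab35. Of the 216 X-linked MSL2 peaks in MLEWT-FLAG males, 74.5% had no MSL2 peak in MLEΔCBD-FLAG males, and 66.7% had an MSL1 peak there. Both features were used to choose the genes, so nothing is read from them.

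The absence of a peak is a statement about the list, not a measured level of zero. The weakest MSL2 peak of the X chromosome that was listed in MLEΔCBD-FLAG males had a fold enrichment of 2.1 and a −log10 p of 9.86, and enrichment below what the caller listed was not measurable. The nearest MSL2 summit in MLEΔCBD-FLAG males was 387.1 kb from the HERC2 site, 134.5 kb from Rab35 and 18 kb from Rip11. In MLEWT-FLAG males the nearest other MSL2 summit was 59.1 kb from HERC2, 71.9 kb from Rab35 and 18 kb from Rip11. Over the X chromosome, the median distance from an MSL2 summit to the nearest other one was 190.3 kb in MLEΔCBD-FLAG males (quartiles 121.7 to 343.6) and 32.4 kb in MLEWT-FLAG males (quartiles 14.2 to 75.6), so the distances of all 3 genes in MLEWT-FLAG males lay between the quartiles.

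**Figure D2:**
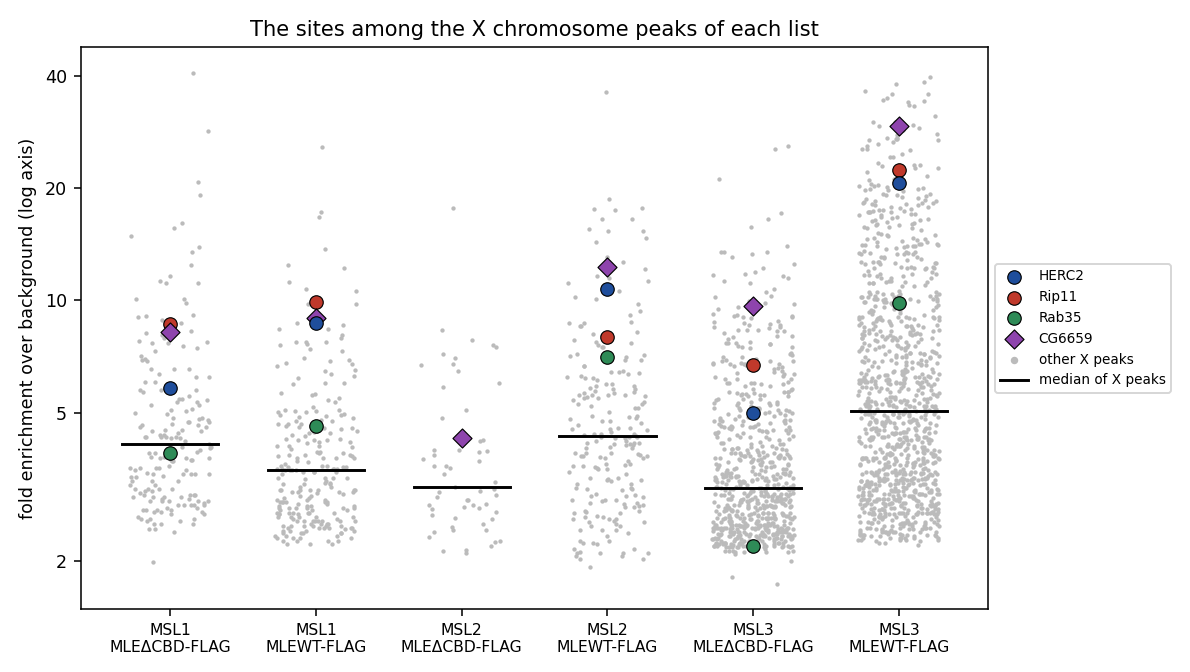
Fold enrichment over background (log axis) of every X chromosome peak in each of the 6 lists, MLEΔCBD-FLAG left of MLEWT-FLAG for each protein. Grey points are peaks, black lines the medians, circles HERC2, Rip11 and Rab35, and diamonds CG6659; in the MSL2 list of MLEΔCBD-FLAG males only CG6659 is present, at 4.28.

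MSL1 had its summit at nearly the same place in both lines at all 3 genes. The MSL1 summit moved by 9 bp at HERC2, 7 bp at Rip11 and 36 bp at Rab35 between the lines, against a median of 26 bp (quartiles 10 to 72.5) over the 147 MSL1 peaks of the X chromosome in MLEWT-FLAG males that had a counterpart. Within a line the first and second sets placed the MSL1 summit of these genes 6 to 19 bp apart. A shift of 36 bp at Rab35 was larger than that distance between sets, which may understate the spread between replicates. It lay between the quartiles of the X chromosome, and the shifts at HERC2 and Rip11 were below the lower quartile. The MSL1 summit lay 1, 19 and 25 bp from the MSL2 summit at HERC2, Rip11 and Rab35 in MLEΔCBD-FLAG males, and 10, 12 and 11 bp in MLEWT-FLAG males.

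At HERC2, MSL1 had a fold enrichment of 5.84 in MLEΔCBD-FLAG males (rank 101 of 577) and of 8.72 in MLEWT-FLAG males (rank 15 of 293). The MLEΔCBD-FLAG list held many peaks outside the X chromosome, so ranks were also taken among X peaks alone, where HERC2 was 49 of 187 in MLEΔCBD-FLAG males and 15 of 247 in MLEWT-FLAG males. The −log10 p was 65.7 and 68.9 in the 2 sets of MLEΔCBD-FLAG males, against 139.5 and 111.7 in MLEWT-FLAG males.

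At Rip11, MSL1 remained among the strongest X peaks of both lines. Its fold enrichment was 8.66 in MLEΔCBD-FLAG males (rank 24 of the X peaks) and 9.88 in MLEWT-FLAG males (rank 11). The −log10 p was 130.5 and 134.4 in the 2 sets of MLEΔCBD-FLAG males, against 171.1 and 128.2 in MLEWT-FLAG males.

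At Rab35, MSL1 was the weakest of the 3 in both lines. Its fold enrichment was 3.89 in MLEΔCBD-FLAG males (rank 100 of the X peaks) and 4.61 in MLEWT-FLAG males (rank 68). The −log10 p was 29.8 and 20.6 in the 2 sets of MLEΔCBD-FLAG males, against 44.4 and 43.7 in MLEWT-FLAG males. Relative to the median X peak of the same list, MSL1 enrichment was 1.42-fold at HERC2, 2.1-fold at Rip11 and 0.944-fold at Rab35 in MLEΔCBD-FLAG males, and 2.49-fold, 2.82-fold and 1.32-fold in MLEWT-FLAG males. Fold enrichments were not scaled between lines, so they are read within a list. As a share of the X peaks of its list, the rank of each of the 3 genes was lower in MLEΔCBD-FLAG males than in MLEWT-FLAG males, and so was that of 76.9% of all kept MSL1 peaks of the X chromosome, so nothing particular to these genes is read from it.

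The MSL1 peaks at HERC2 and Rab35 were less than 50% as wide in MLEΔCBD-FLAG males as in MLEWT-FLAG males. HERC2 was 1545 and 874 bp wide in the 2 sets of MLEΔCBD-FLAG males, against 3224 and 4343 bp in MLEWT-FLAG males, or 47.9% in the first set. Rab35 was 369 and 322 bp wide in MLEΔCBD-FLAG males, against 904 and 768 bp in MLEWT-FLAG males (40.8%). Rip11 was 828 and 762 bp wide in MLEΔCBD-FLAG males, against 1021 and 797 bp in MLEWT-FLAG males (81.1%), and here the widths of the lines overlapped. Over the 147 kept X peaks of MSL1 the median was 87.7% (quartiles 73.4 to 101). HERC2 and Rab35 were narrower in MLEΔCBD-FLAG males in every pairing of sets, which held for 50.3% of the kept X peaks. The sets may not be replicates, so this pairing may not measure variation between replicates. A narrower peak as such was common, and the size of the narrowing placed these 2 below the lower quartile.

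MSL1 was listed in MLEΔCBD-FLAG males at 55.3% of the 161 lost MSL2 peaks of the X chromosome, and MSL3 at 80.1%. All 4 MSL1 peaks of MLEWT-FLAG males in the windows had a counterpart in MLEΔCBD-FLAG males, against 59.5% of the MSL1 peaks of the X chromosome. The presence of MSL1 chose 3 of those 4, so this count carries no weight.

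**Figure D3:**
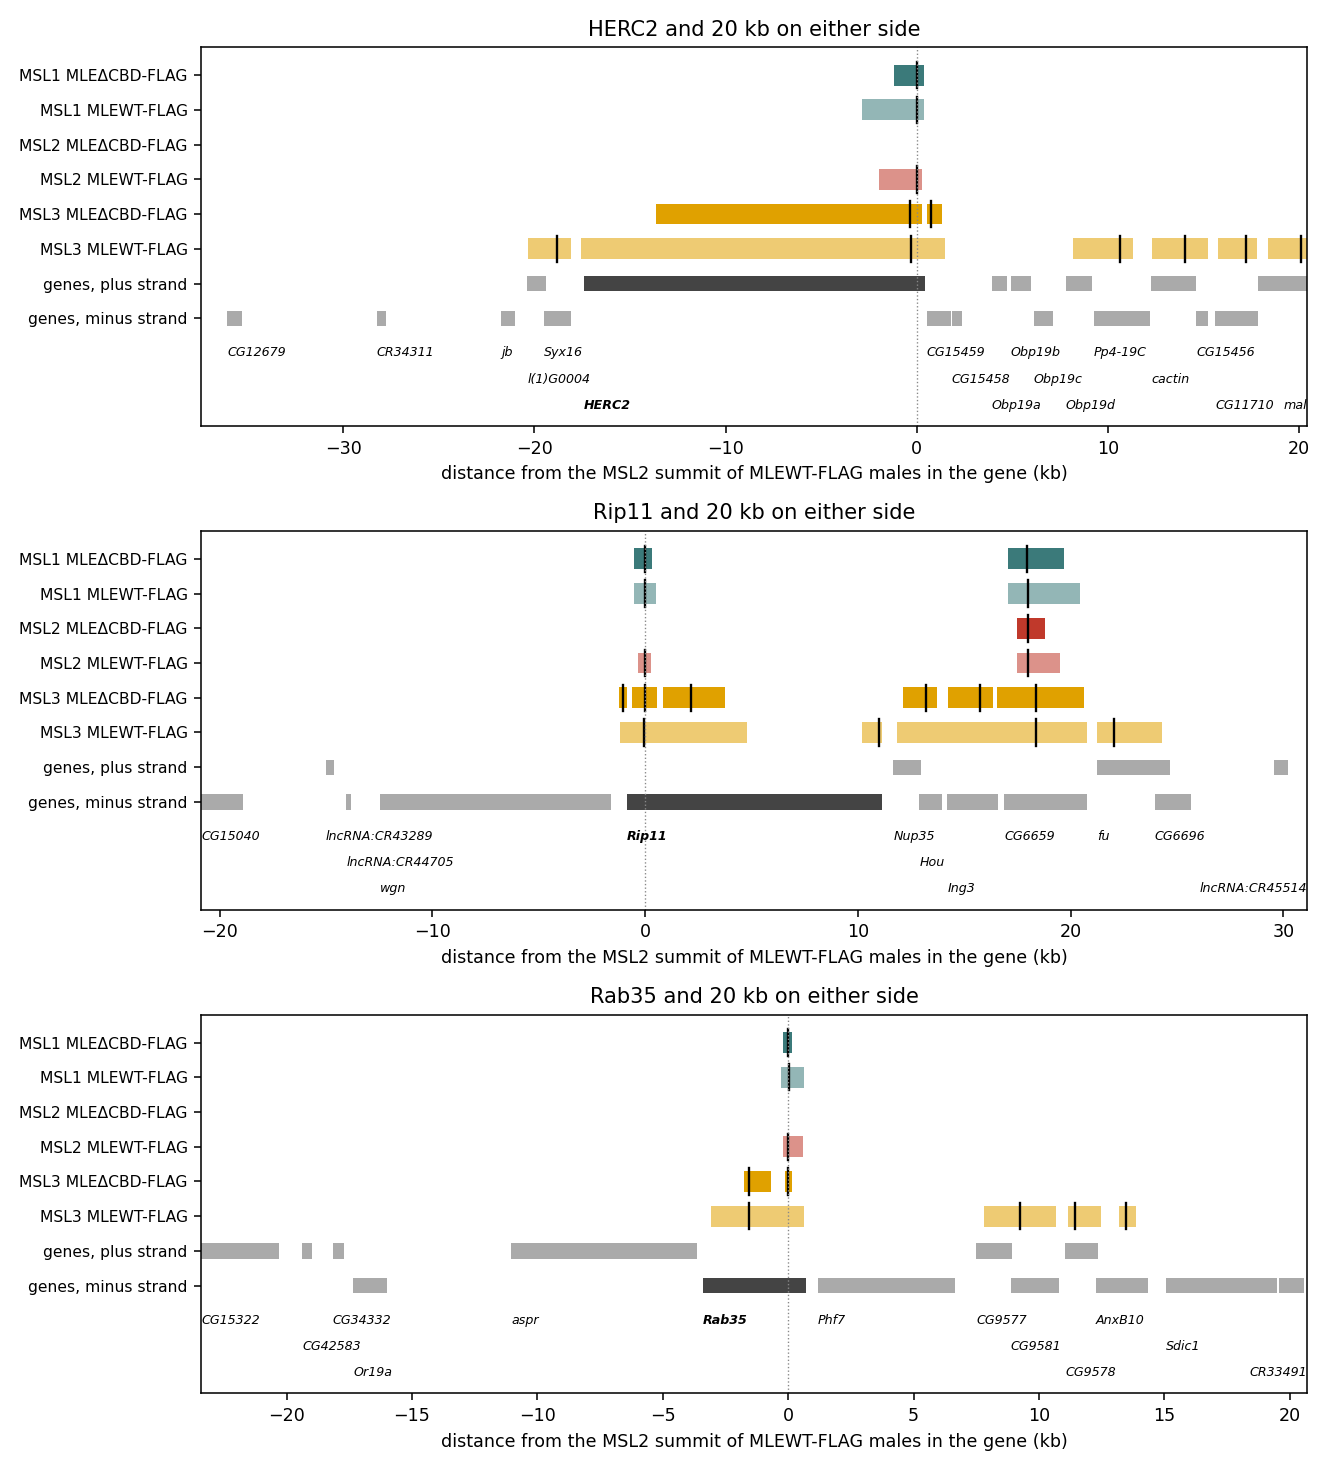
Peaks of MSL1, MSL2 and MSL3 within 20 kb of HERC2, Rip11 and Rab35, by distance (kb) from the MSL2 summit of MLEWT-FLAG males in each gene, with MLEΔCBD-FLAG above MLEWT-FLAG for each protein. Bars are peaks, black ticks summits, grey boxes genes by strand and dark boxes the named gene; the MSL2 rows of MLEΔCBD-FLAG males hold only the CG6659 peak, 18 kb from the Rip11 site.

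MSL3 covered between 54.9% and 100% of the body of each of the 3 genes in MLEWT-FLAG males and less of each in MLEΔCBD-FLAG males. Peaks of MSL3 covered 77.9% of HERC2 in MLEΔCBD-FLAG males and 100% in MLEWT-FLAG males. For Rip11 the shares were 33.8% in MLEΔCBD-FLAG males and 54.9% in MLEWT-FLAG males, and for Rab35 33.1% in MLEΔCBD-FLAG males and 90.5% in MLEWT-FLAG males.

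The MSL3 peak over HERC2 in MLEΔCBD-FLAG males was the widest MSL3 peak of the X chromosome in that list. It was 13913 and 11332 bp wide in the 2 sets of MLEΔCBD-FLAG males, against 19041 and 19754 bp in MLEWT-FLAG males. It ended inside the gene on the 5′ side, at 20398198, in MLEΔCBD-FLAG males, while the MLEWT-FLAG peak began upstream of the gene, at 20394248. Its fold enrichment was 4.99 in MLEΔCBD-FLAG males (rank 154 of 687 X peaks) and 20.6 in MLEWT-FLAG males (rank 54 of 1030). The summit lay near the 3′ end in both lines, at 20411464 in MLEΔCBD-FLAG males and at 20411500 in MLEWT-FLAG males, 359 and 323 bp from the lost MSL2 summit.

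At Rip11, a single MSL3 peak of MLEWT-FLAG males (5952 bp, 18635338 to 18641289) was met by 3 shorter MSL3 peaks in MLEΔCBD-FLAG males. The strongest of the 3 was 1160 bp wide, had a fold enrichment of 6.70 (rank 86 of the X peaks) and had its summit 16 bp from the lost MSL2 summit. The MLEWT-FLAG peak had a fold enrichment of 22.3 (rank 47) and its summit 76 bp from the MSL2 summit. The first and second sets placed these MSL3 summits 94 bp apart in MLEΔCBD-FLAG males and 54 bp apart in MLEWT-FLAG males, so the summits of the lines were not separable. A second, weak MSL3 peak over the 5′ UTR of Rip11 (fold enrichment 2.33, rank 1010) was listed in MLEWT-FLAG males alone.

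At Rab35, MSL3 had 2 short peaks in MLEΔCBD-FLAG males in place of a single peak of 3715 bp in MLEWT-FLAG males. One was 268 bp wide with its summit on the same base as the lost MSL2 summit (distance 0 bp), and with a fold enrichment of 2.2 it ranked 652 of 687 X peaks. The other was 1092 bp wide, had a fold enrichment of 3.08 (rank 355) and shared its summit, 20157614 in the coding part of the gene, with the MLEWT-FLAG peak, which had a fold enrichment of 9.85 (rank 234 of 1030). The MSL3 maximum over Rab35 was thus 1558 bp away from the MSL2 site in both lines. Over the X chromosome, the MSL3 peak at an MSL2 site had its summit a median of 248 bp away in MLEΔCBD-FLAG males (183 sites) and 459 bp away in MLEWT-FLAG males (216 sites), against 18 bp (144 sites) and 22 bp (188 sites) for MSL1. The MSL3 distance at HERC2 lay between the quartiles in both lines (75.5 to 606 bp in MLEΔCBD-FLAG males and 159.5 to 1286 bp in MLEWT-FLAG males). That at Rip11 lay below the lower quartile in both, and that of Rab35 in MLEWT-FLAG males above the upper one. In MLEΔCBD-FLAG males only the 268 bp peak overlapped the Rab35 site, and by this measure its distance of 0 bp lay below the lower quartile.

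The 3 windows together held 4 MSL1 peaks in each line, 1 MSL2 peak in MLEΔCBD-FLAG males and 4 in MLEWT-FLAG males, and 10 MSL3 peaks in MLEΔCBD-FLAG males and 14 in MLEWT-FLAG males. All 15 peaks of MLEΔCBD-FLAG males overlapped a peak of the same protein in MLEWT-FLAG males, and no new peak appeared. The same share was not taken over the X chromosome, and the MSL1 peaks at the 3 genes were part of their choice. Nothing particular to the windows is therefore read from this count. The higher number of MSL3 peaks around Rip11 in MLEΔCBD-FLAG males (6, against 4 in MLEWT-FLAG males) came from long peaks that were listed in pieces. MSL3 peaks covered 28.2 kb of the windows in MLEΔCBD-FLAG males and 58.9 kb in MLEWT-FLAG males, a share of 47.9%, where the share over the X chromosome was 35.5%. For MSL1 the lengths were 5.37 kb in MLEΔCBD-FLAG males and 8.55 kb in MLEWT-FLAG males (62.8%, X chromosome 59.5%). For MSL2 they were 1.29 kb, all of it the CG6659 peak, and 5.68 kb (22.7%, X chromosome 13.0%). Kept MSL1 and absent MSL2 chose the 3 genes, so these shares of MSL1 and MSL2 are a description only. The MSL3 share is a description as well, since the windows were built around strong MSL2 sites of MLEWT-FLAG males. Over the X chromosome, 93.9% of the MSL3 peaks with such a site were kept, against 27.6% of those without. The Rab35 window had the lowest MSL3 share, 15.8%, and the Rip11 window the highest, 64.5%, with HERC2 at 46.7%.

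**Figure D4:**
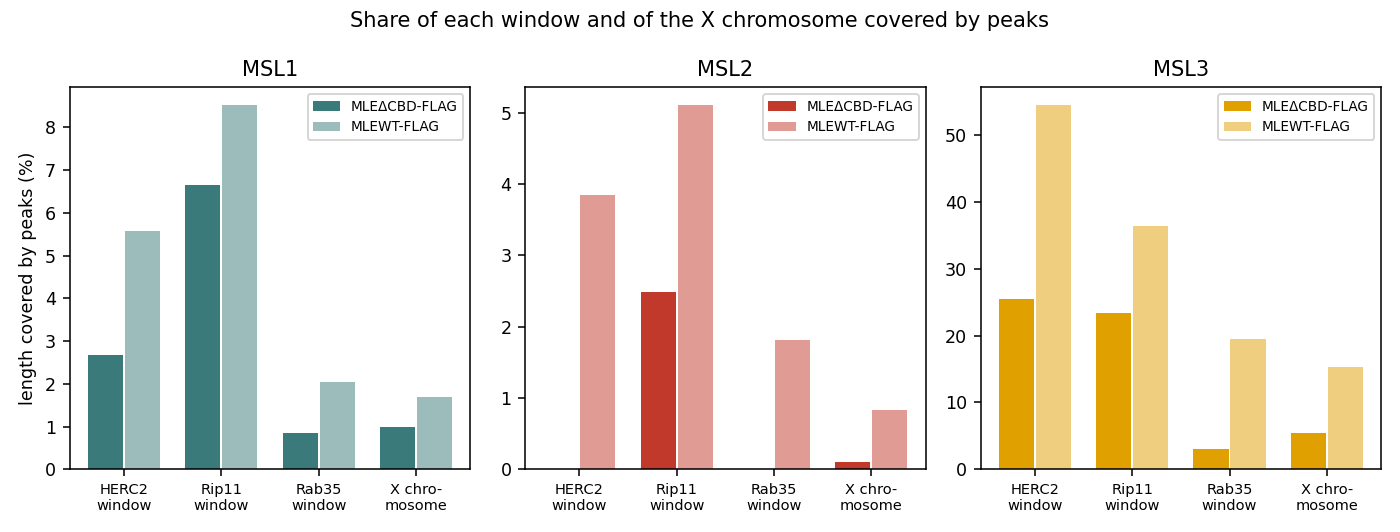
Length covered by peaks (% of the window or of the X chromosome) for MSL1, MSL2 and MSL3, with MLEΔCBD-FLAG bars left of MLEWT-FLAG bars. MSL3 covered 25.4%, 23.4% and 3.08% of the HERC2, Rip11 and Rab35 windows in MLEΔCBD-FLAG males, against 54.4%, 36.3% and 19.5% in MLEWT-FLAG males.

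Of the 14 MSL3 peaks of MLEWT-FLAG males in the windows, 4 had a counterpart in MLEΔCBD-FLAG males (28.6%, 95% Wilson interval 11.7 to 54.6, counting error only), and the share over the X chromosome, 40.3%, lay inside that interval. The 4 were those that held an MSL2 peak in MLEWT-FLAG males: HERC2, Rip11, Rab35 and CG6659. HERC2, Rip11 and Rab35 were chosen by that MSL2 peak and by MSL1 in MLEΔCBD-FLAG males. The side of the split with MSL2 was thus largely set by the choice and is a description only. Over the X chromosome, 93.9% of MSL3 peaks that held an MSL2 peak were kept, and 27.6% of those that did not. None of the 10 MSL3 peaks in the windows without an MSL2 peak was kept (0 of 10, Wilson upper bound 27.8%), so the share over the X chromosome lay just inside that bound. Peaks in 1 window are neighbours and share their region, so they are not independent observations.

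Peak strength moved with that split. When the 1030 MSL3 peaks of the X chromosome in MLEWT-FLAG males were divided by fold enrichment into a strong, a middle and a weak class of near equal size, 87.5% of the strong, 20.1% of the middle and 13.4% of the weak class were kept. All 4 kept peaks of the windows were in the strong class, where 100% of peaks with an MSL2 peak were kept over the X chromosome, and 73.6% of those without. The windows also held 2 peaks of the strong class that had no MSL2 peak and were lost, over cactin (fold enrichment 7.82, rank 317 of the X peaks) and CG11710 (8.83, rank 269). The lower edge of that class was at 7.21. The part of strength in the split was not tested beyond these shares.

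Around the 3 genes, MSL3 peaks lay over 8 genes in MLEΔCBD-FLAG males and over 21 in MLEWT-FLAG males, of the 39 genes that lie wholly in the windows. These shares, 20.5% in MLEΔCBD-FLAG males and 53.8% in MLEWT-FLAG males, were close to those of all 2813 genes of the X chromosome, 22.8% in MLEΔCBD-FLAG males and 49.7% in MLEWT-FLAG males. At least 50% of the gene was covered for 6 genes in MLEΔCBD-FLAG males and for 19 in MLEWT-FLAG males. That count was not taken over all genes of the X chromosome, so nothing particular to the windows is read from it. In the HERC2 window, only HERC2 and the adjoining CG15459 (61.1% covered in MLEΔCBD-FLAG males, 76.4% in MLEWT-FLAG males) had an MSL3 peak in MLEΔCBD-FLAG males. Syx16, a syntaxin of vesicle fusion, Pp4-19C, the catalytic subunit of protein phosphatase 4, and cactin, a splicing factor, were covered to 100%, 69.1% and 97.6% in MLEWT-FLAG males and had no MSL3 peak in MLEΔCBD-FLAG males. The same was true of mal, a molybdenum cofactor sulfurase at the edge of the window, whose MSL3 peak had a fold enrichment of 4.49 in MLEWT-FLAG males. Syx16 adjoins HERC2 on the side away from CG15459, so lying next to HERC2 did not go with kept MSL3 on both sides. HERC2 was chosen by its MSL1 peak, so no link between MSL1 and kept MSL3 is read from this window.

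In the Rip11 window, the genes between Rip11 and CG6659 kept MSL3. Nup35, a nucleoporin, was covered to 63.8% in MLEΔCBD-FLAG males and to 86.4% in MLEWT-FLAG males. Ing3, a reader of histone methylation in a chromatin complex, was covered to 88.9% in MLEΔCBD-FLAG males and to 100% in MLEWT-FLAG males. On the far side of CG6659, fu, a kinase of Hedgehog signalling, was covered to 88.8% in MLEWT-FLAG males and had no MSL3 peak in MLEΔCBD-FLAG males. Nup35, Hou, Ing3 and CG6659 shared a single MSL3 peak of 8907 bp in MLEWT-FLAG males, whereas fu had a peak of its own.

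In the Rab35 window, Rab35 was the only gene with an MSL3 peak in MLEΔCBD-FLAG males. CG9577, CG9581, CG9578 and AnxB10, an annexin, were covered to 79.8%, 93.6%, 92.4% and 41.5% in MLEWT-FLAG males and to 0% in MLEΔCBD-FLAG males. Phf7, aspr and the odorant receptor Or19a had no MSL3 peak in either line, nor had the odorant binding protein genes Obp19a, Obp19b and Obp19c near HERC2 or wgn, a tumour necrosis factor receptor, near Rip11.

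**Figure D5:**
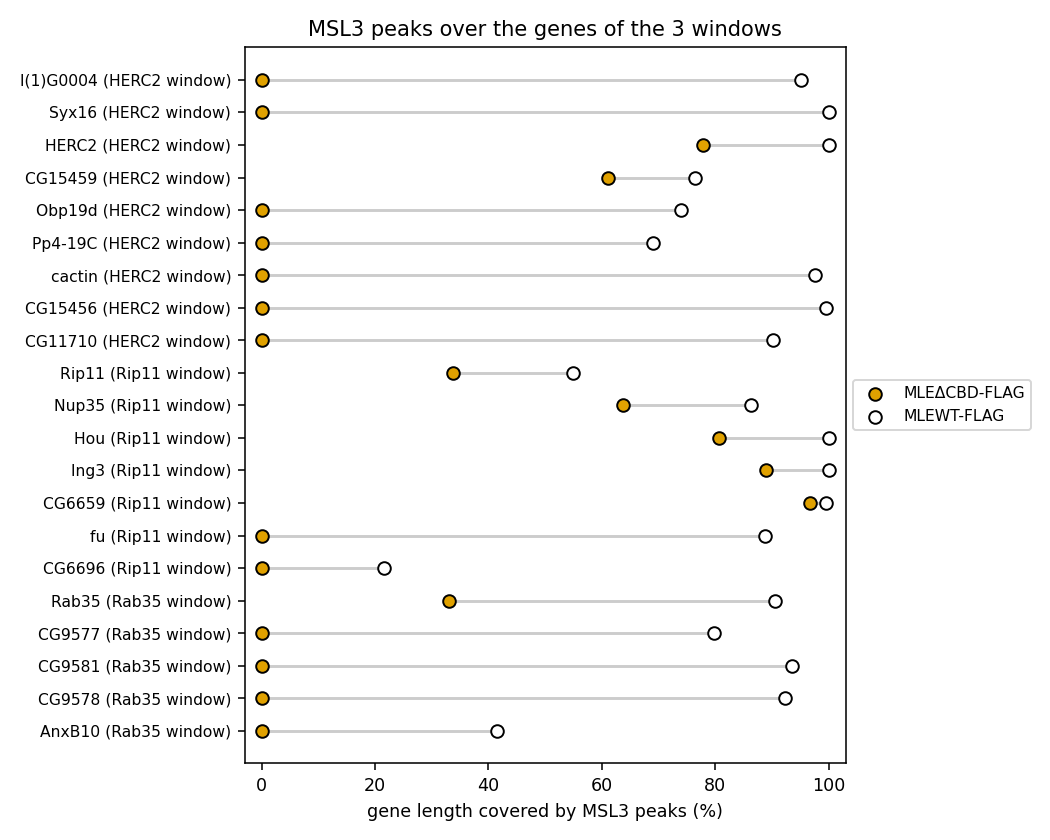
Share of the gene length (%) covered by MSL3 peaks for the 21 genes of the windows with an MSL3 peak in MLEWT-FLAG males; filled points are MLEΔCBD-FLAG males and open points MLEWT-FLAG males. In MLEΔCBD-FLAG males 8 genes lie above 0, and 13 lie at 0.

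Rip11 and CG6659 gave a comparison of a lost and a kept MSL2 site 18 kb apart in the same libraries. At CG6659 (intron, MSL2 peak from 18653971 to 18656021 in MLEWT-FLAG males), MSL2 had a fold enrichment of 4.28 in MLEΔCBD-FLAG males (rank 16 of 92) and of 12.3 in MLEWT-FLAG males (rank 15 of 222). The peak was 1290 bp wide in the first set of MLEΔCBD-FLAG males, the widest MSL2 peak of the X chromosome in that list, but 348 bp in the second, and the −log10 p was 55.7 and 17.6. In MLEWT-FLAG males the width was 2051 and 767 bp. MSL1 was as strong at Rip11 as at CG6659 in both lines, with a ratio of fold enrichments (Rip11 over CG6659) of 1.05 in MLEΔCBD-FLAG males and 1.10 in MLEWT-FLAG males. The same ratio was 0.649 for MSL2 in MLEWT-FLAG males, and for MSL3 it was 0.695 in MLEΔCBD-FLAG males and 0.76 in MLEWT-FLAG males. The MSL2 values of Rip11 chose it, so its ratio is a description, and kept MSL2 peaks weaker than Rip11 were given above.

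The 3 genes did not share a profile over the 6 lists. Each site was described by its relative rank in each list (1 at the top, 0 for no peak), and the Euclidean distance between these profiles of 6 values was taken to every other MSL2 site of the X chromosome. Rip11 lay nearest to crm (0.0846), nocte (0.0903) and HERC2 (0.132), and HERC2 nearest to Rip11 (0.132), crm (0.174) and nocte (0.18). Rab35 stood apart from the other 2, nearest to NFAT (0.32), the site shared by Usf and lncRNA:CR32773 (0.344) and fs(1)h (0.364). The relative rank of MSL3 in MLEΔCBD-FLAG males was 0.793 at HERC2, 0.881 at Rip11 and 0.22 at Rab35. At Rab35 this is the 268 bp peak over the MSL2 site (rank 1796 of 2301). The stronger 1092 bp peak in the gene (rank 968) does not overlap that site and did not enter the profile. In MLEWT-FLAG males the value, 0.904, is that of the single 3715 bp peak. How much this added to the distance of Rab35 was not tested. All of these neighbours had lost MSL2 as well, which the profile contains, so that is no separate observation. The profile also contains MSL2 strength in MLEWT-FLAG males and MSL1 in MLEΔCBD-FLAG males, which were used to choose the genes. Nearness to crm and nocte, the next lost peaks in that order, is therefore partly built in.

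Rab35 was set against the other genes of its family, all genes whose symbol is Rab or RabX followed by a digit, which includes the regulators Rab3-GEF, Rab3GAP1 and Rab3-GAP. Of the 14 on the X chromosome, MSL1 lay over 2 in each line, and MSL2 over 0 in MLEΔCBD-FLAG males and 2 in MLEWT-FLAG males, in both cases Rab35 and Rab40. With so few genes, 2 of 14 (14.3%) was near the MSL1 share of all protein-coding genes of the X chromosome. That share was 9.38% in MLEΔCBD-FLAG males and 11% in MLEWT-FLAG males. For MSL2 the share of all these genes was 2.6% in MLEΔCBD-FLAG males, beside 0 of 14, and 10.2% in MLEWT-FLAG males, beside 2 of 14. Rab35 was itself chosen by its MSL1 and MSL2 peaks, so nothing is read from these counts. MSL3 lay over 4 of the 14 in MLEΔCBD-FLAG males (28.6%) and 7 in MLEWT-FLAG males (50.0%), where the shares of all 2196 protein-coding genes of the X chromosome were 26.6% in MLEΔCBD-FLAG males and 56.1% in MLEWT-FLAG males. Rab18 and Rab21 were the other Rab genes of the X chromosome with MSL3 in both lines, while Rab10, Rab27 and Rab39 had MSL3 in MLEWT-FLAG males alone. Of the 22 Rab genes on the autosomes, 4 had an MSL3 peak in MLEΔCBD-FLAG males and 3 in MLEWT-FLAG males, and 2, Rab5 and RabX5, had an MSL1 peak in MLEΔCBD-FLAG males, where none had one in MLEWT-FLAG males. None had an MSL2 peak in either line. Among all autosomal protein-coding genes, 11.5% had an MSL3 peak in MLEΔCBD-FLAG males and 13.6% in MLEWT-FLAG males, and 3.82% had an MSL1 peak in MLEΔCBD-FLAG males and 0.315% in MLEWT-FLAG males, and nothing particular to the Rab genes is read from their counts.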

How the data were processed

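Peaks of MSL1, MSL2 and MSL3 in MLEΔCBD-FLAG and MLEWT-FLAG males were taken from 6 deposited lists in narrowPeak form with 20 columns, 1 per protein and line, which the authors made from 2 biological replicates each by cutadapt trimming, Bowtie2 mapping, MACS2 peak calling and the irreproducible discovery rate (IDR) pipeline. Per the methods the coordinates are those of dm6, and the deposited peaks carry the names of its chromosomes. dm3 is also named in the submitters' processing notes, with no role. Versions are not given in the sources used here. The lists hold the fold enrichment over local background as deposited (a linear ratio), the −log10 p and −log10 q of MACS2 as deposited, and the deposited score of the global IDR (its −log10). Starts, ends, summits and −log10 p are also deposited for both peak sets of the IDR pair. Whether these are replicates or pseudoreplicates is not stated for any list. The largest global IDR was 0.043 and 0.048 in the MSL2 lists of MLEΔCBD-FLAG and MLEWT-FLAG males. It was 0.01 or less in the other lists, so the MSL2 lists passed a looser limit. The paper names limits for true replicates and for pseudoreplicates, so the kind of pair may differ between the MSL2 lists and the others. Read depth is unknown, and no interval on a fold enrichment could be given.

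Peaks within 20 kb of the bodies of HERC2, Rip11 and Rab35 (Ensembl release 115, BDGP6 version 6.54) were taken, and an overlap of 1 bp counted as shared. Ranks were by fold enrichment within a list, and tied peaks share the better rank. Summits were assigned to a coding exon, UTR, other exon or intron of any transcript, in that order. Sequence was read from the RefSeq genome of the same build, whose X chromosome has 23542271 bp. The scripts were tested on simulated peaks and sequences. Tables were handled in pandas 2.3.3 and numpy 2.4.6, intervals came from scipy 1.17.1 and plots from matplotlib 3.10.9, under Python 3.11.15.

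The text names the 3 genes, genes that hold the summit of a peak within 20 kb, the next 2 lost MSL2 peaks, the 3 sites most alike to each gene, roX1, the kept MSL2 peaks next in rank, and the Rab family. Other genes of the windows, named with their cover, the position along the gene, the spacing of MSL2 summits and the rank shares of MSL1 were added after the values were seen. The members and lists were chosen with earlier results of these data known. Wilson intervals (95%) cover counting error only. Alternatives were other windows, limits, rank columns, peak sets and definitions of a shared peak. The preimmune library was not used.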

Additional observations from a re-analysis of the deposited data

How the results depend on the processing

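The counts of peaks depended on the window, because MSL3 lies over neighbouring genes. With gene bodies only, the MSL2 peaks of MLEΔCBD-FLAG males numbered 0, since the CG6659 peak is outside, and the MSL3 peaks 6 in MLEΔCBD-FLAG males and 4 in MLEWT-FLAG males. The share of MLEWT-FLAG peaks kept was then 0% for MSL2 and 75.0% for MSL3. With 10 kb on either side, MSL3 had 8 peaks in MLEWT-FLAG males. The other 42 of 48 alternatives to counts, kept shares, covered lengths and GA runs stayed within 1.5 times or within the interval. Of 63 alternative ranks, 50 stayed within 1.5 times, and the 13 that did not were 8 ranks among X peaks only and 5 by the −log10 p of the second set. Among these, Rip11 was 85 by the second set for MSL2 in MLEWT-FLAG males, and Rab35 was 336 for MSL1 in MLEΔCBD-FLAG males. Of 21 widths, 5 moved by more than 1.5 times in the second set, 4 of them for MSL2. The 3 nearest profiles were also taken from ranks by −log10 p, and the nearest site of each gene did not change, though norpA took the place of fs(1)h for Rab35. No paired analysis was possible because the lists carry no column for a replicate, and no replicate could be left out for the same reason.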
